A study of Mus musculus with 24 samples.

Results

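Acetylation of lysine 27 of histone H3 (H3K27ac) was mapped by ChIP-seq in cultured mouse vascular smooth muscle cells (VSMC), and 5636 regions far from gene starts were listed in every cholesterol and control culture at 24 h and 48 h but not in control cells at 0 h. The regions were chosen by presence in the lists, from the 53053 regions of the control 24 h list. They were shorter than 5000 bp, shared at least 1 bp with a region of the control 48 h, cholesterol 24 h and cholesterol 48 h lists, shared none with the 0 h list, and had a midpoint over 3000 bp from every start site of the transcripts in the RNA table. Of the 39307 control 24 h regions that met the limits on length and distance (distal regions), 14.34% were absent at 0 h alone. They are set below against the 8158 distal regions present in all 5 lists and against the 15414 distal regions found at 0 h only.

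The cells were C57BL/6J aortic VSMC grown in DMEM with 10% FBS. Treated cells received cholesterol complexed with methyl-β-cyclodextrin at 20 µg/ml in 0.2% BSA for 24 h or 48 h, and control cells received 0.2% BSA without the complex for 0, 24 or 48 h. The 0 h control is therefore the state before the BSA incubation, and all 4 later conditions share that incubation. No control received the carrier alone, so the effects of cholesterol and of its carrier cannot be told apart. H3K27ac was measured in 1 library per condition with 1 input library each, so no difference between H3K27ac lists has a replicate check or a test. RNA was measured in 14 libraries, with 3 per condition and 2 for control cells at 48 h. Replicate 1 of the 0 h control was kept here. The authors left it out of their comparison with in vivo data because it did not cluster with its replicates. The authors call the RNA replicates biological triplicates. The labels do not say whether they came from separate cultures or animals, so p-values measure the spread between these libraries only.

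H3K27ac is deposited by the coactivators p300 and CBP on nucleosomes that flank active enhancers and promoters. Distal H3K27ac regions usually mark enhancers, which are DNA elements bound by transcription factors that raise the transcription of genes at a distance. In smooth muscle, enhancers of contractile genes are known for CArG boxes bound by serum response factor with myocardin, while AP-1 (FOS and JUN proteins) and TEAD factors with YAP occupy many enhancers of adherent mesenchymal cells. Serum is a known activator of these factors.

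The members were ranked by their lowest tag density over the 4 later lists, that is, H3K27ac tags per kb of region with each library scaled to 10000000 tags, and the first 10 are named. A value in another list is that of the region called there that overlaps the member, whose bounds can differ. The highest was chr9:122309879-122311469 (mm10), in a noncoding exon of Gm26797, with 116.6 tags per kb in cholesterol-treated cells at 24 h and 115.1 at 48 h. In control cells it had 113.0 tags per kb at 24 h and 120.1 at 48 h. The next was chr17:47762006-47764348 in an intron of Tfeb, the gene of a transcription factor for lysosomal genes. Its tag density was 103.9 and 109.0 in cholesterol-treated cells at 24 h and 48 h, and 111.9 and 111.8 in control cells. These top regions lay 16251 bp and 22567 bp from the nearest start site of the RNA table, but 21 bp and 7 bp from a transcript start of the GENCODE M21 annotation. The remaining 8 lay 3653 bp or more from any GENCODE start.

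Central 200 bp windows of 5 of these regions are shown because each holds a motif that was counted over all members. Sequences are from GRCm38.p6, the assembly of mm10, on the + strand and written 5′ to 3′. Capitals mark matches, on either strand, to the motifs named. The first is from the region 16251 bp from the start of Ano10, with an E-box (CACGTG). The second is intergenic, 39845 bp from the start of Srrm1, which encodes a splicing coactivator, with KLF matches (GGGNGTG). The third is intergenic, 27418 bp from the start of Srsf10, another splicing factor gene, with a TEAD match (GGAATG). The fourth is intergenic, 10636 bp from the start of Capn2, which encodes a calpain protease, with 2 AP-1 matches (TGANTCA) and a CArG box. The fifth is intergenic, 12252 bp from the start of F3, the gene of tissue factor, with an E-box.
chr9:122310575-122310774 (Ano10): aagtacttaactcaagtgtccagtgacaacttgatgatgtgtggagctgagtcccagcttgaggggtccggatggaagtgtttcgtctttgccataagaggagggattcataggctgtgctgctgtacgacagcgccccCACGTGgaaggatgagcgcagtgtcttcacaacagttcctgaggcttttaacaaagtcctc
chr4:135313270-135313469 (Srrm1): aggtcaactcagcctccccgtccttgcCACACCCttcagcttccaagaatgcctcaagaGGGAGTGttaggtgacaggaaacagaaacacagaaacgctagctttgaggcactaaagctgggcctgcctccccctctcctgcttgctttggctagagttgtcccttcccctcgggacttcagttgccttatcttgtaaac
chr4:135828554-135828753 (Srsf10): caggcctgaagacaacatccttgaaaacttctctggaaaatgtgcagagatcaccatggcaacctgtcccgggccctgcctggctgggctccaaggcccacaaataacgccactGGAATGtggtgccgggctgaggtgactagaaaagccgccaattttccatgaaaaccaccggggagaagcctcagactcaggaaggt
chr1:182528020-182528219 (Capn2): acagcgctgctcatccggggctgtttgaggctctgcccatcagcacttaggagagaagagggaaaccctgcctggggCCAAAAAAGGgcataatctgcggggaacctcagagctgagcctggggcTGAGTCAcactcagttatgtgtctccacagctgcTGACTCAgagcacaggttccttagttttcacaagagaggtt
chr3:121735690-121735889 (F3): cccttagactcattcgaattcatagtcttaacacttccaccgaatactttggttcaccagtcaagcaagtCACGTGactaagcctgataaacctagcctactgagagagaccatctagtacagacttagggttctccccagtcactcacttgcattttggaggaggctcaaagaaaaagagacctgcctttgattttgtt

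In the Capn2 region, whose window holds both AP-1 and CArG matches, tag density was 116.4 and 92.1 in cholesterol-treated cells at 24 h and 48 h, against 99.5 and 95.8 in control cells. The Srsf10 region stood between 92.3 and 96.5 in all 4 lists. No member had a 0 h value, because the lists give tags only for the regions called in them.

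The 0 h library stood apart from the others. The 4 later libraries had 37.35% to 43.77% of their tags in regions, against 16.94% at 0 h, with 16532230 to 24609788 tags in all, against 15344470. Their lists were no longer (49153 to 53053 regions, against 53096 at 0 h), but 23.2% to 30.7% of their regions had a length of 500 bp, the shortest listed, against 56.0% at 0 h. The median input count under their regions was 8 to 13 tags, against 3 at 0 h. Absence at 0 h was also the most common way to miss 1 list: 5636 distal control 24 h regions missed the 0 h list alone, 787 the control 48 h list, 627 the cholesterol 24 h list and 1212 the cholesterol 48 h list. The part of the lower tag share at 0 h in these absences was not tested, and with 1 library the time point and the library cannot be told apart.

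The members were weaker and shorter than the regions present throughout. Their median tag density in control cells at 24 h was 32.27 tags per kb, against 44.45 for regions in all lists, with the middle 80% at 20.68 to 50.95 against 27.68 to 72.63. The gap was alike in the other lists, with medians of 33.46 against 45.86 in control cells at 48 h, 34.39 against 48.24 in cholesterol-treated cells at 24 h and 33.52 against 45.76 at 48 h. Median length was 1364 bp against 2068 bp, and median fold over input 5.69 against 6.50. Regions in all lists were themselves smaller at 0 h: the median ratio of 0 h to control 24 h was 0.35 for tags per region, 0.43 for length and 0.83 for tags per kb. The rule chose regions on presence in these same lists, so these values describe the members.

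**Figure D1:**
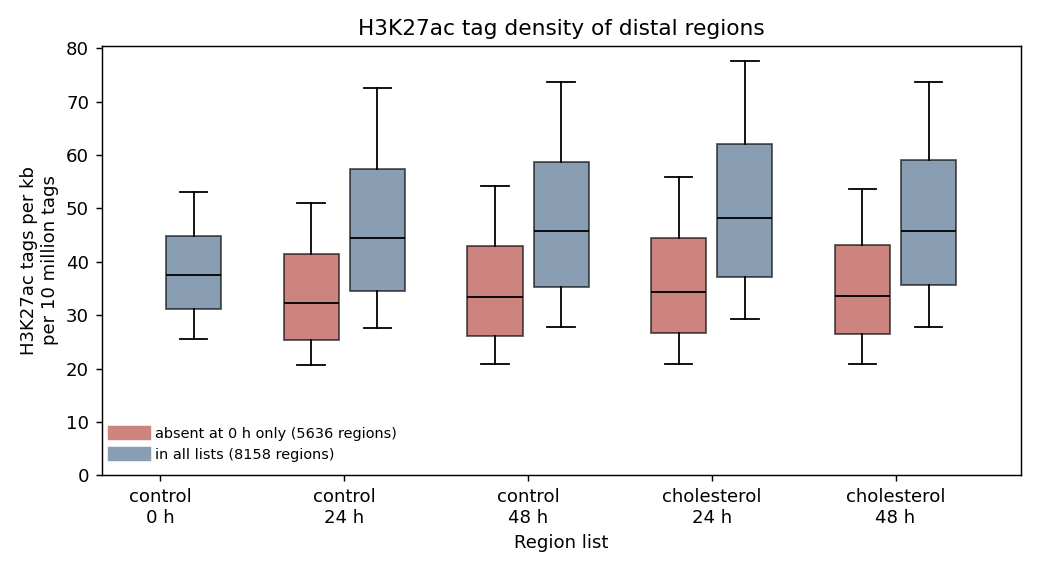
H3K27ac tags per kb of region per 10000000 tags (y axis) in each region list (x axis) for the 5636 distal regions absent at 0 h only and the 8158 in all lists. Boxes span the quartiles with the median as a line, and whiskers the 10th to 90th percentiles over regions. Members have no box at 0 h, and their medians of 32.27 to 34.39 lie below those of 44.45 to 48.24 for regions in all lists.

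The share absent at 0 h was smaller among regions with more signal. Of the distal regions of the 4 later lists, 74.8% of the decile with the lowest tag density at control 24 h had no 0 h region, against 9.1% (126 of 1380) of the decile with the highest, which began at 65.82 tags per kb. By length the share was 73.5% in the shortest decile and 10.9% in the longest. By fold over input it was 56.6% in the lowest decile and 28.0% in the highest, with 26.7% in the one before it.

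Members were unevenly placed over the chromosomes, and chromosome X stood apart. Of the 276 distal X regions in the 4 later lists, 205 (74.3%) were absent at 0 h, against 5431 of 13518 (40.2%) on the other chromosomes and a range of 35.6% (chromosome 6) to 46.2% (chromosome 14) over autosomes. X regions were weaker, with a median of 28.1 tags per kb against 39.5. Within each quartile of tag density the X share was still the higher: 86.2% against 66.3% in the lowest quartile, 63.2% against 46.6% in the second, 51.4% against 33.5% in the third and 46.2% (6 of 13) against 15.5% in the highest. X regions made up 1.93% to 2.22% of all distal regions in the 4 later lists, against 1.09% at 0 h. In control cells at 24 h, input tags under distal regions were 7.51 per kb on X and 10.59 on autosomes. At 0 h they were 3.64 and 4.72. In the RNA, Ddx3y, a Y-linked gene, had 3.95 to 6.19 RPKM over the 14 libraries, and Xist, the RNA of the inactive X chromosome, at most 0.00913 RPKM. X genes were called at close to the rate of others between control 24 h and 0 h, with 17 higher and 17 lower of 411, which is 4.14% each, against 4.46% and 3.8% elsewhere. The part of input depth and of the weaker X signal in the X share was not tested further.

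**Figure D2:**
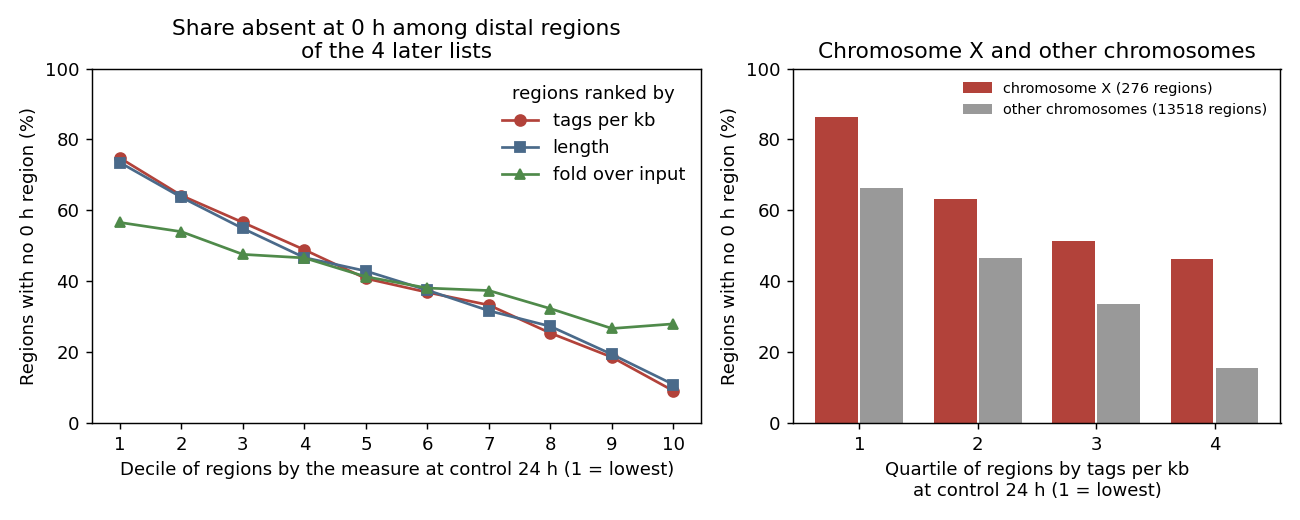
Share of distal regions of the 4 later lists with no 0 h region (y axis, %). Left, by decile of tag density, length or fold over input in the control 24 h list, where the density line runs from 74.8% to 9.1%. Right, by quartile of tag density, for chromosome X and the other chromosomes, where the X bar is the higher in each quartile (86.2% against 66.3% in the lowest).

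Most members lay some way from any 0 h region. The median gap to the nearest one was 6404.5 bp, and 809 members (14.4%) lay within 1000 bp of one and 141 (2.5%) within 100 bp. The smallest gap was 1 bp. Of all members, 1334 (23.7%) had a region of all 5 lists within 10000 bp. The longest member spanned 4972 bp and the shortest region left out by length alone 5016 bp. The member nearest to a start site was 3006 bp away and the farthest region left out by that limit 2993 bp. Length alone left out 34 regions and distance alone 1216.

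Tag density of the members was compared across the 4 later lists. The highest value of a region over its lowest was 1.45 in the median, and under 2 for 5104 regions (90.6%). For regions in all lists it was 1.37, and under 2 for 95.3%. Cholesterol-treated over control density had a median of 1.05 at 24 h and 1.00 at 48 h, against 1.06 and 1.00 for regions in all lists. These ratios compare regions called separately in each list, and the overlapping cholesterol regions covered at least 50% of 82.0% of the members at 24 h and of 71.9% at 48 h. At 24 h, the density was at least 2-fold higher in cholesterol-treated cells for 144 members (2.56%), against 2.07% of all distal regions found in both lists, and at least 2-fold lower for 21 (0.373%), against 0.581%. At 48 h, 65 were higher (1.15%, against 0.992%) and 59 lower (1.05%, against 0.935%). Control cells at 48 h over 24 h gave a median of 1.02, with 137 members (2.43%) at least 2-fold higher and 32 (0.568%) lower, against 2.15% and 0.578%. Counted by tags per region in place of density, 809 members (14.4%) were higher and 342 (6.07%) lower at 24 h, against 12.9% and 6.23% of all distal regions, and at 48 h 472 (8.37%) were higher and 768 (13.6%) lower, against 7.11% and 11.5%. These shares lay near those of all distal regions, and with 1 library each they have no replicate check.

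Members lay mostly in introns and between genes. Their midpoints fell in introns of protein-coding genes for 49.6%, between genes for 39.4%, in introns of other genes for 6.2%, and in coding exons, UTRs or noncoding exons for 1.2%, 1.8% and 1.8%. For regions in all lists the first 2 shares were 52.1% and 36.8%. The median distance to a start site of the RNA table was 33.8 kb, against 30.8 kb. Because that table does not hold every transcript, 904 members (16.0%) lay within 3000 bp of a GENCODE transcript start, against 19.6% of regions in all lists. The central 200 bp had a median GC content of 45.5%, against 47.5% in regions of all lists, 45.0% in all distal regions and 43.0% in those only at 0 h.

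Members shared their most common motifs with regions present throughout. An AP-1 match (TGANTCA, either strand) lay in the central 200 bp of 891 members (15.8%), against 18.1% of regions in all lists, 13.7% of all distal control 24 h regions and 8.12% of regions only at 0 h. A TEAD match (GGAATG) lay in 1077 (19.1%), against 19.5%, 16.4% and 12.4% in the same order. A KLF match (GGGNGTG) lay in 14.4%, against 17.1%, 13.8% and 10.7%. CArG boxes were in 2.41% of members, against 2.08%, 1.70% and 1.03%. RUNX matches (TGTGGTT) were in 5.61%, against 4.96%, 5.24% and 4.88%, and sterol response elements (TCACNCCAC) in 1.05%, against 0.797%, 0.745% and 0.642%.

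Of the other motifs searched on both strands, FOX (TGTTTAC) was in 3.05% of members and 3.23% of all distal regions, the E-box (CACGTG) in 2.89% and 2.68%, and C/EBP-ATF (GATGCAA) in 1.79% and 1.88%. CRE (TGACGTCA) was in 0.266% and 0.287%, the glucocorticoid element (GNACANNNTGTNC) in 0.248% and 0.3%, and the NFI palindrome (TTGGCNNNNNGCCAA) in 0.0177% and 0.0432%. Regions in all lists held CRE in 0.588% and the NFI palindrome in 0.0613%. Matches to different motifs may share bases and were counted separately, and a match describes the letters only.

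AP-1 and TEAD matches peaked at the region centres. In the 50 bp bins on either side of the centre, members had 1.10 and 1.11 AP-1 matches per kb, against 1.25 and 1.32 in regions of all lists and 0.462 and 0.427 in regions only at 0 h. TEAD matches there came to 1.24 and 1.32 per kb in members, 1.40 and 1.29 in regions of all lists, and 0.71 and 0.716 in regions only at 0 h. Within the members the AP-1 share was 13.0% in the quartile with the lowest tag density, then 14.8%, 16.0% and 19.4% in the highest. The TEAD share was 17.7%, 19.2%, 18.1% and 21.4%.

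**Figure D3:**
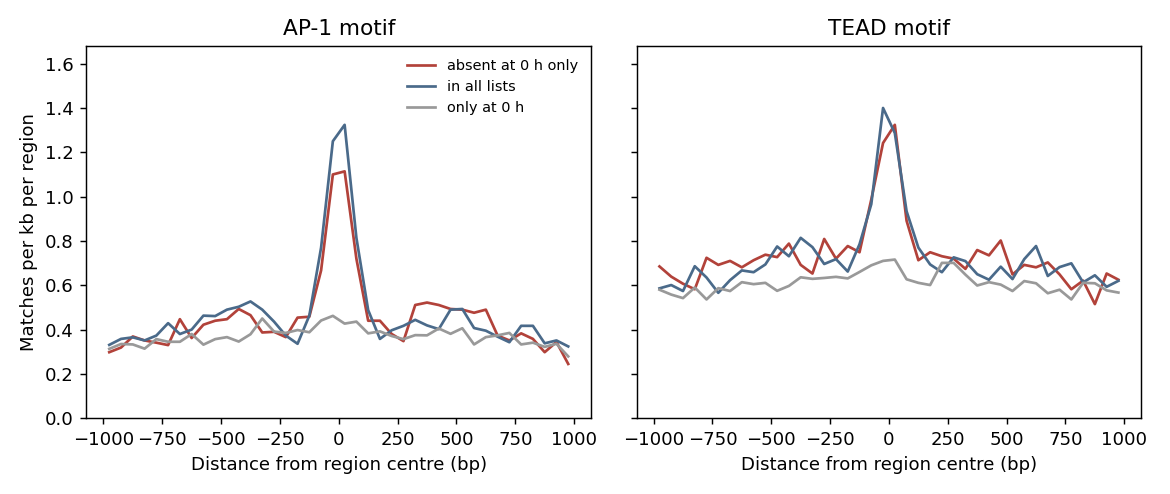
Matches per kb per region (y axis) to the AP-1 motif (left) and the TEAD motif (right) in 50 bp bins by distance from the region centre in bp (x axis). Lines are distal regions absent at 0 h only, in all lists and only at 0 h. Members peak at the centre (1.11 AP-1 matches per kb) close to regions in all lists (1.32), while regions only at 0 h had at most 0.462 AP-1 matches per kb in those bins.

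RNA was then compared for the genes nearest to the members, which the rule did not use. A named start site lay within 100 kb of 4502 members, giving 3354 genes, of which 2346 had enough reads to test and 1600 were also nearest to a region in all lists. The levels of the 2346 genes were ordinary, at a median of 1.68 RPKM against 1.91 over all genes tested. RPKM counts reads over the whole gene body, introns included. Values were rescaled between libraries, and log2 fold changes are on the log2(RPKM + 1) scale, which understates the change of low genes. RNA of bulk cultures cannot tell fewer cells of a type from less RNA per cell.

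In the comparison of 24 h with 0 h in control cells, 133 of the 2346 genes (5.67%) were called higher and 136 (5.80%) lower by limma at an adjusted p of 0.05. Over all 12648 genes tested the shares were 4.45% and 3.81%, and near regions in all lists 5.57% and 5.29%. The median log2 fold change was -0.010, against 0.000 over all genes. The 1118 tested genes nearest to members but to no region in all lists had 4.65% higher and 5.10% lower. The genes were thus called in both directions at rates a little over the background and close to those of genes near regions in all lists. Without rescaling, the split near members was 177 higher and 103 lower, and over all genes 763 and 318 in place of 563 and 482. Several single libraries moved these counts by over 1.5 times. Leaving out replicate 3 of the 0 h control gave 183 and 335, against 962 and 1484 over all genes. Leaving out its replicate 1 gave 87 and 84, against 327 and 285. Leaving out replicate 2 of the 24 h control gave 84 and 64, against 305 and 188. Its replicate 3 gave 88 and 67, against 293 and 200. The lower count was 77, against 239, when replicate 2 of the 0 h control was left out. It was 73, against 250, for replicate 1 of the 24 h control.

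In the later and the cholesterol comparisons, with rescaled values of all libraries, more genes near members were called lower than higher. The same held near regions in all lists and, by less, over all genes. In control cells at 48 h against 0 h, 196 genes near members (8.35%) were higher and 284 (12.1%) lower, against 7.66% and 8.07% of all genes and 8.71% and 10.6% near regions in all lists. In cholesterol-treated against control cells at 24 h, 77 (3.28%) were higher and 107 (4.56%) lower, against 2.48% and 2.96%, and near regions in all lists 2.85% and 4.84%. At 48 h, 315 (13.4%) were higher and 386 (16.5%) lower, against 11.9% and 12.9%, and 12.3% and 16.8%. The comparisons at a time share their control libraries with those against 0 h, and no difference between the shares was tested. Fitting only the groups compared gave 73 higher and 122 lower at control 48 h against 0 h, beside 346 and 388 of all genes. With cholesterol it gave 194 and 297 at 24 h, beside 976 and 1150, and 133 and 172 at 48 h, beside 572 and 736. For cholesterol at 24 h, leaving out any 1 of the 6 libraries compared gave 34 to 47 higher and 43 to 70 lower. Over all genes it gave 140 to 182 and 178 to 222. Leaving out replicate 1 of cholesterol 48 h gave 118 and 149 near members, beside 489 and 545. Leaving out replicate 3 of the 48 h control gave 101 and 162 at control 48 h against 0 h, beside 512 and 534. With cholesterol at 48 h it gave 211 and 235, beside 945 and 1052. Leaving out replicate 2 of the 48 h control gave 134 and 171 at control 48 h against 0 h, beside 614 and 648. The order of higher and lower turned in some settings. For cholesterol at 48 h, values without rescaling gave 343 higher and 324 lower near members, beside 1586 and 1280 of all genes. At 24 h they gave 82 and 89, beside 320 and 275. Without replicate 1 of cholesterol 48 h, the 48 h comparison gave 407 and 365 near members, beside 1666 and 1690.

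**Figure D4:**
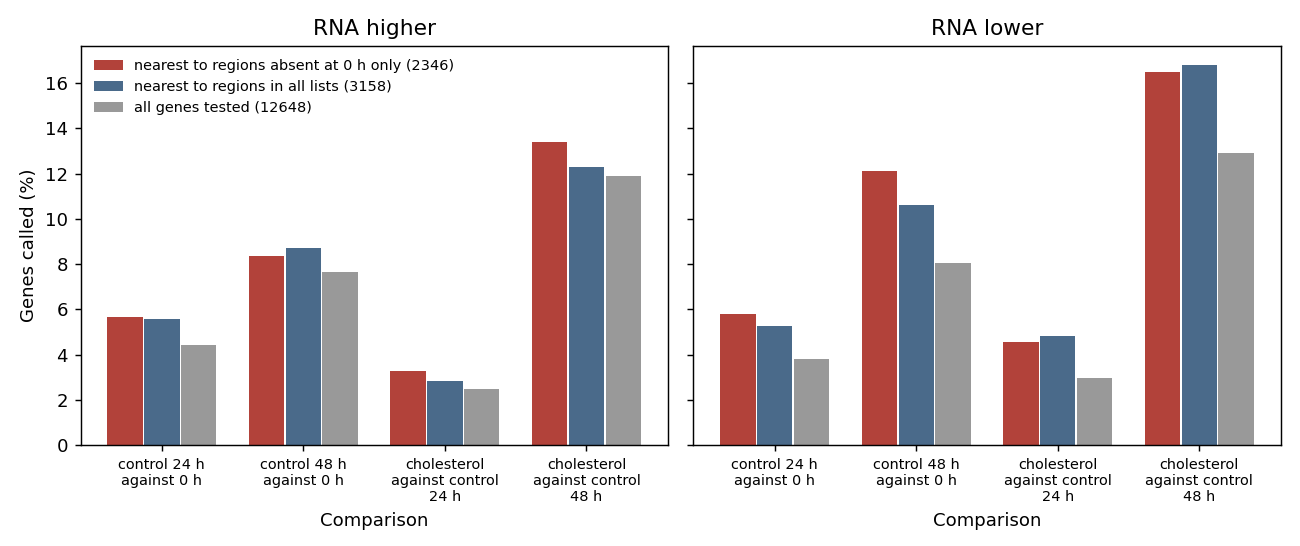
Genes called by limma at an adjusted p of 0.05 (y axis, % of genes tested) in 4 comparisons (x axis), higher on the left and lower on the right. Bars are genes nearest to distal regions absent at 0 h only (2346), nearest to regions in all lists (3158), and all genes tested (12648). Near members 5.67% were higher and 5.80% lower at control 24 h against 0 h, beside 4.45% and 3.81% of all genes.

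Among the genes near members, Ccl2 had the largest named rise in control cells at 24 h. Ccl2, the chemokine that attracts monocytes, had 4, 5.65 and 4.7 RPKM in control cells at 24 h, against 0, 0.792 and 0.665 RPKM at 0 h. No 0 h library reached any 24 h library, which choosing the largest called rises makes likely. The log2 fold change was 2.00 ± 0.213 (SE; limma adjusted p = 0.000196). Its member lay at chr11:82019321-82022843, 14495 bp from the start, with 27.5 and 28.9 tags per kb in cholesterol-treated cells at 24 h and 48 h, against 24.3 and 34.3 in control cells. Cxcl1, a neutrophil chemokine, had 1.48, 2.02 and 1.67 RPKM at 24 h, against 0, 0 and 0.148 RPKM at 0 h (log2 fold change 1.37 ± 0.117, limma adjusted p = 4.64e-05). Both 0 h libraries at 0 RPKM for Cxcl1 had fewer tags than the other 0 h library.

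Nfkbia encodes IκBα, which holds NF-κB in the cytoplasm and is itself an NF-κB target. It had 21.2, 20.3 and 20.4 RPKM in control cells at 24 h, against 11, 9.76 and 11.4 RPKM at 0 h (log2 fold change 0.89 ± 0.0682, limma adjusted p = 2.83e-05). Its member, chr12:55453497-55455093, lay 38352 bp from the start and held TEAD and CArG matches in its centre. That member was one of the closer ones to a 0 h region, at 312 bp. Fst, whose product follistatin binds activins, had 11.3, 13.1 and 12.4 RPKM at 24 h, against 5.82, 6.5 and 6.9 RPKM at 0 h (0.84 ± 0.0672, limma adjusted p = 3.43e-05). Rgs5, a regulator of G protein signalling of pericytes and arterial smooth muscle, had 2.92, 3.37 and 3.35 RPKM at 24 h, against 1.12, 1.22 and 1.26 RPKM at 0 h (0.94 ± 0.0652, limma adjusted p = 1.21e-05). None of these groups overlapped, which choosing the largest called rises makes likely.

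These genes differed from each other in their levels with cholesterol. They were chosen on their rise in the control 24 h libraries, which the cholesterol comparison at 24 h also uses. A lower value with cholesterol at 24 h is therefore not independent of the choice. Fst had 7.43, 7.65 and 7.78 RPKM in cholesterol-treated cells at 24 h, against 11.3, 13.1 and 12.4 RPKM in control cells (log2 fold change -0.62 ± 0.0672, limma adjusted p = 0.000156). Rgs5 had 2.03, 1.81 and 2 RPKM, against 2.92, 3.37 and 3.35 RPKM (-0.51 ± 0.0652, limma adjusted p = 0.000549). Nfkbia differed by -0.07 ± 0.0682 (limma adjusted p = 0.693) and Ccl2 by -0.24 ± 0.213 (limma adjusted p = 0.633). At 48 h, Fst (-0.71) and Rgs5 (-0.69) were again lower with cholesterol, while Cxcl1 was higher, at 3.52, 4.61 and 3.06 RPKM against 1.78 and 1.74 RPKM in control cells (0.76 ± 0.131, limma adjusted p = 0.00117). The tag density of the Rgs5 member, an intronic region, was 29.1 in cholesterol-treated cells against 41.1 in control cells at 24 h, and 46.1 against 40.8 at 48 h. That of the Fst member was 45.9 against 44.6 at 24 h, and 42.5 against 52.7 at 48 h. The other 5 named rises were Islr (0.78), Podn (0.71), Zfp36l1 (0.69), Lctl (0.68) and Il17b (0.68) on the log2 scale. Il17b kept its call in 16 of 21 alternative fits, and at 48 h against 0 h it gave 0.15 (limma adjusted p = 0.639). Podn encodes a proteoglycan, Zfp36l1 a protein that destabilises mRNAs and Il17b a cytokine.

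Cyp26b1, Edn1 and Thbd were among the 10 named falls. Cyp26b1, which degrades retinoic acid, had 11.2, 10.4 and 9.56 RPKM in control cells at 24 h, against 24.9, 21.2 and 18.4 RPKM at 0 h (log2 fold change -0.98 ± 0.1, limma adjusted p = 0.00016). Edn1, which encodes the vasoconstrictor endothelin-1, had 4.72, 4.82 and 4.3 RPKM at 24 h, against 8.75, 9.66 and 9.47 RPKM at 0 h (-0.87 ± 0.0775, limma adjusted p = 5.8e-05). Thbd, the gene of the anticoagulant receptor thrombomodulin, had 20.6, 23.1 and 23.1 RPKM at 24 h, against 33.9, 35.8 and 33 RPKM at 0 h (-0.60 ± 0.0611, limma adjusted p = 0.000149). In all 3 genes every 24 h library was below every 0 h library, which choosing the largest called falls makes likely. These genes thus had less RNA in the condition where their nearby member was listed.

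The members beside these falling genes differed widely in strength. Thbd had one 6063 bp away at chr2:148401620-148402630, with 33.0 tags per kb in control cells at 24 h and a sterol response element match. Cyp26b1 had an intergenic member 7905 bp away with 57.8 tags per kb and an intronic one of 500 bp with 13.0, where the lowest density of any member was 11.38. The Edn1 member lay 66433 bp from its start with 24.9 tags per kb in control cells at 24 h.

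Dusp1, a phosphatase that switches off MAP kinases, fell at 24 h to 14.4, 15 and 12.8 RPKM in control cells, against 27.9, 23.7 and 22.7 RPKM at 0 h (log2 fold change -0.77 ± 0.0838, limma adjusted p = 0.000218). In cholesterol-treated cells at 24 h it had 23.4, 21.4 and 22.9 RPKM, higher than in control cells by 0.65 ± 0.0838 (limma adjusted p = 0.000601). Dusp1 was chosen on its fall in the same control 24 h libraries, so this difference is not independent of the choice. Hfe2, which encodes the BMP co-receptor hemojuvelin, changed by -0.72 at 24 h against 0 h and was 1.23 higher with cholesterol at 48 h. The other named falls were Npnt (-0.74), Gadd45g (-0.62), Lbh (-0.56), Axl (-0.52) and Mmp17 (-0.51). Gadd45g kept its call in 15 of 21 alternative fits, Axl in 16 and Lbh in 20. Npnt encodes a matrix ligand of integrins, Axl a receptor tyrosine kinase and Mmp17 a membrane-bound metalloproteinase. Axl had 2 members of similar density, 55.8 and 56.5 tags per kb in control cells at 24 h, and the nearer one held AP-1 and TEAD matches.

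**Figure D5:**
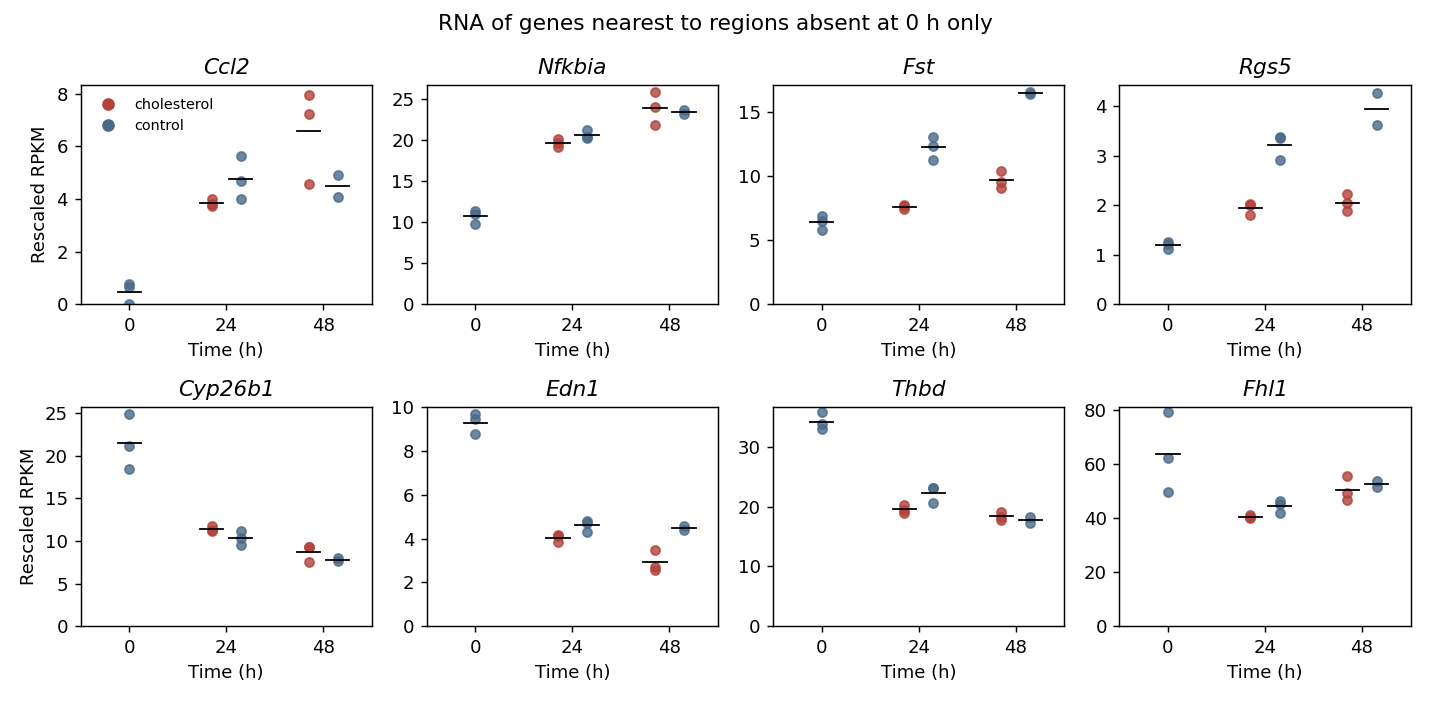
Rescaled RPKM (y axis, linear, from 0) of 8 genes nearest to members by time in h (x axis). Points are libraries, lines are group means, and cholesterol-treated cells stand left of control cells at 24 h and 48 h. Ccl2, Nfkbia, Fst and Rgs5, chosen as rises, are higher in control cells at 24 h than at 0 h, with no overlap. Cyp26b1, Edn1 and Thbd, chosen as falls, are lower, with no overlap. Fhl1 at 0 h spans 49.8 to 79.3.

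Of the 3354 genes nearest to a member, 2541 had exactly 1 and 28 had 5 or more. For the regions in all lists, 2835 of 4312 genes had exactly 1 and 131 had 5 or more. Fhl1, an X-linked LIM-domain gene of muscle, had 10 members between chrX:56675412 and 56758279, 8 of them intergenic and 2 in its introns, and 2 regions present in all lists. Their lowest densities over the 4 lists were 18.9 to 35.4 tags per kb. Fhl1 RNA was 41.8, 46.5 and 45.1 RPKM in control cells at 24 h, against 79.3, 62.1 and 49.8 RPKM at 0 h (log2 fold change -0.49 ± 0.137, limma adjusted p = 0.0497). The groups did not overlap, but the 0 h libraries differed widely and the adjusted p lay at the threshold. Replicate 1 of the 0 h control, the highest, had the fewest tags of the 14 RNA libraries.

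Foxp1, a forkhead transcription factor gene, had 8 members, all in its introns, and 10 regions present in all lists. Tead1 had 7 members and 8 such regions. Foxp1 RNA was 2.94, 2.94 and 2.72 RPKM at 24 h, against 3.37, 3.12 and 2.91 RPKM at 0 h (-0.10 ± 0.0619, limma adjusted p = 0.341). Tead1 RNA was 3.24, 3.38 and 3.33 RPKM, against 4.12, 3.48 and 3.43 RPKM (-0.11 ± 0.0897, limma adjusted p = 0.448). Of the genes with 6 members, Fez2 was lower at 24 h by the test (-0.39 ± 0.0828, limma adjusted p = 0.0146). Col4a1, which encodes a basement membrane collagen, gave -0.36 ± 0.123 (limma adjusted p = 0.0918), and Tspan3, Fmn1 and Xxylt1 had adjusted p of 0.199, 0.314 and 0.525. 1700027F09Rik was listed at 0 in every library and Gm8817 in all but 1, which had 0.018 RPKM.

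Genes of smooth muscle pathways were followed as fixed lists. Of all 12648 genes tested, 2346 were nearest to a member and 3158 to a region in all lists. How many genes of each fixed list were nearest to regions in all lists was not counted. Of 16 contractile genes, 10 were nearest to a member, among them Acta2, Myh11, Lmod1, Myocd and Mylk. One of the 10, Synpo2, which encodes an actin-binding protein of the Z-disc, rose at 24 h (0.20 ± 0.0302, limma adjusted p = 0.0015) and none fell. Acta2, smooth muscle actin, had 32, 34.4 and 34.5 RPKM in control cells at 24 h, against 61.3, 42.1 and 35 RPKM at 0 h (-0.41 ± 0.156, limma adjusted p = 0.121). Its 0 h values were lower in libraries with more tags (2727000, 4782000 and 6994000 in the same order). In cholesterol-treated cells at 24 h, 4 of the 10 were lower than in control cells, namely Myh11 (-0.38), Lmod1 (-0.36), Synpo2 (-0.26) and Mylk (-0.24), of which Mylk was named after its values were seen. Those 4 were also the ones lower in the whole list of 16, against 2.96% of all genes tested. The median over the 10 genes was -0.23, against -0.002 over all genes tested. At 48 h, 2 of the 10 were higher and 3 lower with cholesterol, and 2 and 6 of the 16.

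Extracellular matrix genes were the longest list and the one with the most members, 38 beside 21 of its 36 genes. Of the 20 tested, 1 rose and 3 fell at 24 h against 0 h, with a median of -0.31, and of the whole list 1 rose and 5 fell among 34 (median -0.28). The rise was of Thbs2, a thrombospondin, with 5.32, 6.2 and 5.88 RPKM at 24 h against 3.23, 3.15 and 3.46 RPKM at 0 h (0.67 ± 0.0543, limma adjusted p = 3.43e-05). Its member lay 96284 bp away, near the limit. In cholesterol-treated cells Thbs2 was lower than in control cells, by -0.81 at 24 h and -1.27 at 48 h. The 24 h difference uses the same control 24 h libraries as the rise. The falls, named after their values were seen, were the collagen Col5a1 (-0.38, limma adjusted p = 0.0283), the cross-linking enzyme Loxl1 (-0.33, limma adjusted p = 0.00928) and periostin, Postn (-0.34, limma adjusted p = 0.0395). In the 0 h libraries, of 2727000, 4782000 and 6994000 tags, Col5a1 had 7.53, 6.07 and 5.17 RPKM. Loxl1 had 14.2, 12.9 and 11.9 RPKM there, and Postn 13.2, 10.8 and 9.7 RPKM. The 24 h control libraries had 6759000 to 7352000 tags. The part of tag depth in these falls and in the list median was not tested. Thbs1, Col1a1 and Fn1 had adjusted p of 0.0641, 0.095 and 0.149.

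Among AP-1 genes, 3 of 12 were nearest to members, Fosl2 with 4 members, Atf3 and Fosb with 1 each. None was called at 24 h against 0 h. Fosl2 had 10.1, 9.79 and 9.52 RPKM in control cells at 24 h, against 10.6, 10.2 and 9.76 RPKM at 0 h (-0.05 ± 0.0909, limma adjusted p = 0.769). In cholesterol-treated cells at 24 h, Atf3, a stress-induced factor, was higher than in control cells (2.33, 2.49 and 2.37 RPKM against 0.576, 0.512 and 0.562 RPKM; 1.13 ± 0.0667, limma adjusted p = 1.2e-06) and so was Fosl2 (0.40 ± 0.0909, limma adjusted p = 0.0259). Of the TEAD list, 6 of 17 genes were nearest to 17 members, and Axl and Crim1 (-0.35, limma adjusted p = 0.0335) fell, the same 2 that fell among all 15 tested. Ctgf, a target of YAP and TEAD, had 130, 139 and 138 RPKM at 24 h against 241, 166 and 128 RPKM at 0 h, and the groups overlapped (limma adjusted p = 0.321).

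In the smaller lists, Pdk4 was lower at 24 h among 2 FOXO genes near members (-0.30, limma adjusted p = 0.0275), Cdk1 among 2 cell cycle genes (-0.29, limma adjusted p = 0.0381), and Dusp1 and the kinase gene Sgk1 (-0.49, limma adjusted p = 0.00937) among 4 tested glucocorticoid targets. In the whole lists, 1 of 16 tested FOXO genes, 13 of 29 cell cycle genes and 2 of 9 glucocorticoid targets were lower, against 3.81% of all genes. None of the 4 clock genes and 3 cholesterol synthesis genes near members was called. With cholesterol at 24 h the 3 synthesis genes were lower, as were all 22 of the list. Hmgcs1, an enzyme early in the pathway, had 3.35, 3.49 and 3.18 RPKM in cholesterol-treated cells at 24 h against 11.5, 12 and 11 RPKM in control cells. Its member, 19209 bp away, had 45.8 tags per kb in cholesterol-treated cells against 34.2 in control cells at 24 h, and 43.1 against 34.9 at 48 h, while the RNA was lower at both times (-1.53 and -1.25).

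The 5 smooth muscle markers summed to 110 to 117 RPKM in control cells at 24 h and 118 to 209 RPKM at 0 h. The 24 h control libraries had 6759000 to 7352000 tags and the 0 h libraries 2727000 to 6994000. The part of this depth in the sums was not tested. The 6 endothelial markers summed to 0.553 to 0.738 RPKM at 24 h and 0.643 to 0.808 RPKM at 0 h. The 7 macrophage markers summed to 3.11 to 5.44 RPKM at 24 h and 3.45 to 5.28 RPKM at 0 h. Ptprc, Adgre1 and Itgam were at or near 0 throughout, and Cd68, Cd14 and Lyz2 made up most of the sum, at means of 2.64, 1.64 and 1.11 RPKM over all libraries. In cholesterol-treated cells the macrophage sum was 4.66 to 5.47 RPKM at 24 h, against 3.11 to 5.44 RPKM in control cells, and 8.61 to 9.3 RPKM at 48 h, against 6.44 to 6.63 RPKM. Cd68 was higher with cholesterol by 0.47 at 24 h (limma adjusted p = 0.0378) and 0.87 at 48 h (limma adjusted p = 0.000484). Of the 4 macrophage markers tested, 1 was called higher at 24 h and 2 at 48 h, and none lower. The median log2 fold change over the 4 was 0.05 at 24 h and 0.06 at 48 h. The 6 fibroblast markers summed to 2.23 to 2.74 RPKM at 24 h and 1.70 to 1.83 RPKM at 0 h, which did not overlap. Serpinf1, the largest part of that sum, rose (0.35 ± 0.0707, limma adjusted p = 0.0105), and Lum and Dpt were at or near 0. The part of these markers in the results above was not tested. No macrophage marker gene was nearest to a member. Emcn, an endothelial sialomucin, had 5 members, and its RNA was 0.0677, 0.0706 and 0.0397 RPKM at 24 h against 0.176, 0.151 and 0.118 RPKM at 0 h (-0.12 ± 0.0172, limma adjusted p = 0.00151). All these values lie near 0 RPKM, and at 0 h they were lower in libraries with more tags.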

How the data were processed

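The RNA values are deposited RPKM over RefSeq gene bodies (alignment with STAR to mm10, counting with HOMER). The H3K27ac lists came from the authors' Bowtie2 alignments and HOMER calls. Versions of STAR, Bowtie2 and HOMER are not given in the sources used here. The authors' own DESeq2 test of counts was not used. Per the file headers, regions needed a fold of at least 4 over input and a Poisson p-value of 1.00e-04. Tags per region are a signal scaled to 10000000 tags, as deposited, and input tags are a deposited signal. Fold over input is a ratio computed by the authors' caller. Its p-value and score columns were not used.

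Members, comparison lists and gene lists were chosen with earlier results of these data known. Lengths were end minus start. Overlap needed 1 bp. A gene was nearest when its start site was the closest named one within 100 kb of the midpoint. Named genes were the 10 largest rises and falls called at control 24 h against 0 h among nearest genes with a mean of at least 1 RPKM, the 10 with the most members and examples from each list. Motifs were counted on both strands in GRCm38.p6.

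RNA was tested with limma 3.58.1 in R 4.3.3 on log2(rescaled RPKM + 1), with 1 transcript per gene, 1 mean per group over 14 libraries, trended eBayes and Benjamini-Hochberg adjusted p-values called at 0.05. Genes with over 70 estimated reads in a library were tested, 12648 of 18896. Reads were estimated from RPKM, gene length and the mapped reads given by the authors. Library factors were 0.904 to 1.057. Steps in low RPKM gave 2727000 to 7591000 tags per library (100% of values whole within 0.25 tag). These depths lie below the average mapped reads given by the authors, so 70 estimated reads stand for fewer counted tags. The scripts were tested on simulated data. Same-numbered replicates did not deviate together (correlations -0.28 to 0.13). Other cutoffs, scalings, filters, a replicate block and leaving out each library were tried.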

Additional observations from a re-analysis of the deposited data

How the results depend on the processing

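The number of members was 5636, and 2899 with 50% overlap with each other list, 853 with a fold over input of at least 8 at control 24 h and 43 with that fold in the 4 later lists. Further than 3000 bp from GENCODE starts as well, a setting chosen after seeing the data, it was 4732. The density ratio of members to regions in all lists was 0.726, 0.474 by tags per region and 0.875 by fold over input. By tags per region, 809 members were at least 2-fold higher and 342 lower with cholesterol at 24 h, and 472 and 768 at 48 h, with shares near those of all distal regions (12.9% and 6.23%, 7.11% and 11.5%). At 1.5-fold per kb, 502 (8.91%) were higher and 235 (4.17%) lower at 24 h, against 8.26% and 4.99% of all distal regions. At 48 h they were 425 (7.54%) and 374 (6.64%), against 6.61% and 5.96%. The AP-1 share was 22.8% in the central 400 bp and 49% in whole regions.

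For RNA at control 24 h against 0 h, genes with a mean of at least 1 RPKM gave 282 higher and 290 lower, RPKM as deposited 318 lower, and a fit of only the groups compared 242 lower. At control 48 h against 0 h the first filter gave 610 and 608 and the last fit 346 and 388. With cholesterol at 24 h, the last fit gave 976 and 1150 and the filter 245 lower. At 48 h the last fit gave 572 and 736 and the filter 1037 lower. Among genes near members the filter gave 75 and 84 and the fit 70 lower. Leaving out 1 library gave 293 to 962 higher and 188 to 1484 lower at control 24 h against 0 h, 512 to 1244 and 534 to 1413 at 48 h, 140 to 489 and 178 to 545 with cholesterol at 24 h, 945 to 1699 and 1052 to 1875 at 48 h, and 84 to 183 and 64 to 335 among genes near members. The replicate block gave 478 and 360 over all genes at control 24 h against 0 h and 123 and 100 near members, where no pairing was seen. The cause of these shifts was not tested. Of the 20 named rises and falls, 16 kept their call in all 21 alternatives, and Il17b kept it in 16, Gadd45g in 15, Axl in 16 and Lbh in 20. H3K27ac has 1 library per condition, which limits the precision of its values.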
